A study of Homo sapiens with 6 samples.

Results

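DAB2, CCDC80, FBLN1, CD44, ANTXR1, AOX1, BNC1, CILK1, HEG1 and MEGF9 are 10 genes, of 18417 measured, whose expression lay well below control both in TSC2 knockdown cells and in cells adapted from that knockdown. They were picked by hand because the mean log2 intensity of both knockdown groups was well below control, with no numeric threshold, and each was read from its brightest probe set, which for all 10 was the only one named for that gene alone. The study hybridised total RNA of Du145 cells, an established human prostate carcinoma line, to 6 microarrays, 2 per group. The groups were shTSC2-adapted (cells that the labels describe as adapted from the knockdown, without saying to what or for how long), shTSC2 (cells with a short hairpin RNA against the tumour suppressor gene TSC2) and control. All 3 groups were kept at 1% oxygen, with 24 h of hypoxia before RNA was taken. The sources used here do not say whether control cells carried a hairpin, whether the knockdown cells were 1 clone, or whether the arrays of a group came from separate cultures, so a p-value here reflects array-to-array spread alone, possibly technical. An effect of the hairpin itself and an effect of lower TSC2 cannot be told apart.

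As background, TSC2 acts with TSC1 to restrain the small GTPase RHEB and so the growth kinase complex mTORC1. The 10 genes do not form 1 pathway. CCDC80 and FBLN1 encode secreted proteins of the extracellular matrix, CD44 and ANTXR1 are membrane receptors for matrix components, hyaluronan and collagen, and HEG1 and MEGF9 are membrane proteins with EGF-like repeats. DAB2 and CILK1 act inside the cell, as an endocytic adaptor and a kinase of the cilium, while BNC1 is a zinc finger protein of the nucleus and AOX1 a cytosolic molybdenum enzyme. CD44 is widely used as a surface marker of carcinoma subpopulations.

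The targeted gene was lower on all 4 knockdown arrays. TSC2 had log2 intensities of 6.54 and 6.48 in shTSC2-adapted cells, 6.67 and 6.55 in shTSC2 cells, and 7.52 and 7.59 in control cells. Median intensities of the arrays were 58.1 to 63.1 over 33297 probe sets. The epithelial keratins KRT8 and KRT18 lay between 11.22 and 11.5 log2 on all arrays, and the prostate secretory protease KLK3 lay between 5.01 and 5.29, near the lower quartile of the genes tested (5.01). Of 10 fibroblast and 10 endothelial markers, cell types in which several of the 10 genes are also known, 0 passed in any of the 3 comparisons with limma. The summed intensity of the fibroblast markers was 418 and 412 in shTSC2-adapted cells, 407 and 408 in shTSC2 cells, and 391 and 381 in control cells. That of the endothelial markers was 334 and 349 in shTSC2-adapted cells, 355 and 371 in shTSC2 cells, and 343 and 341 in control cells, and 5 of the fibroblast and 2 of the endothelial markers were under 4.33 log2, the lower quartile over probe sets, on every array.

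The matrix genes CCDC80 and FBLN1 were low in both knockdown groups, and neither passed the test between those groups. All member values are log2 intensities on the 6 arrays, and are compared only within a gene. CCDC80, a secreted matrix glycoprotein, read 6.10 and 6.38 in shTSC2-adapted cells, 6.35 and 5.64 in shTSC2 cells, and 8.14 and 8.15 in control cells. Every knockdown array lay far below both controls, while the knockdown groups overlapped and the shTSC2 arrays themselves were 0.71 apart. Its mean was 26.7% of the control intensity in shTSC2-adapted cells and 22.5% in shTSC2 cells. FBLN1, a calcium-binding glycoprotein of elastic fibres and basement membranes, read 7.47 and 7.64 in shTSC2-adapted cells, 7.95 and 7.75 in shTSC2 cells, and 8.93 and 8.95 in control cells. Its lowest arrays were those of the adapted cells, at 38.3% of control, against 47.0% in shTSC2 cells.

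Both matrix receptors showed the same order of control above knockdown. CD44, the main cell-surface receptor for hyaluronan, read 7.53 and 7.33 in shTSC2-adapted cells, 7.10 and 7.11 in shTSC2 cells, and 8.61 and 8.33 in control cells. The 3 groups did not overlap, with 48.6% of the control intensity in adapted cells and 38.8% in shTSC2 cells. CD44 is spliced into many isoforms, and 1 probe set that sums over a transcript does not separate them. ANTXR1, a collagen-binding receptor that also takes up anthrax toxin, read 8.67 and 8.68 in shTSC2-adapted cells, 8.86 and 8.72 in shTSC2 cells, and 9.73 and 9.76 in control cells. It stood at 47.6% of control in adapted cells and 51.6% in shTSC2 cells, with narrow gaps of 0.01 and 0.14 log2 between the arrays of each group.

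**Figure D1:**
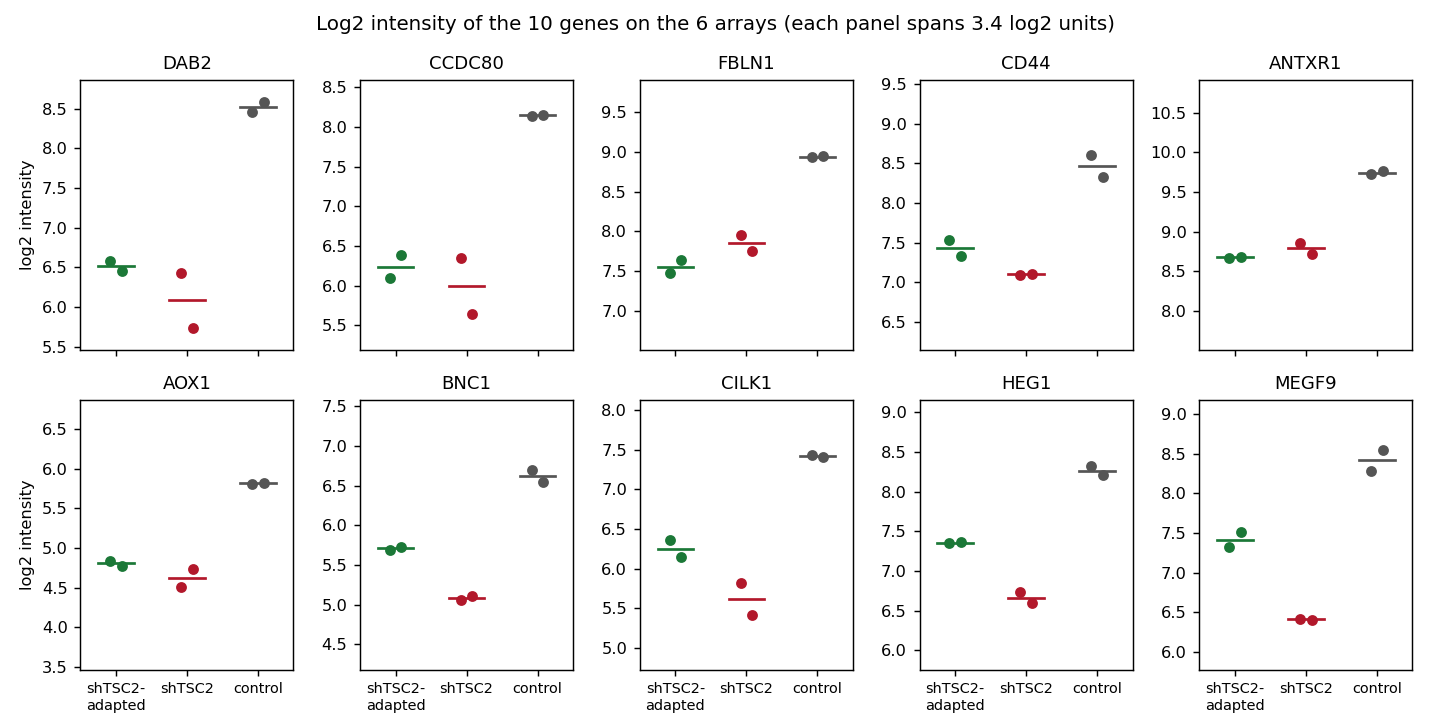
Log2 intensity (vertical axis, 3.4 log2 units in each panel) of the 10 genes in shTSC2-adapted, shTSC2 and control Du145 cells (horizontal axis). Points are the 2 arrays of a group and bars their mean. In every panel all 4 knockdown arrays lie below both control arrays, and the gap between the 2 knockdown groups is widest for MEGF9 (1.005 log2).

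Both membrane proteins with EGF-like repeats had adapted levels between those of shTSC2 and control cells. HEG1, a transmembrane protein that recruits the CCM complex to cell junctions in endothelium, read 7.35 and 7.36 in shTSC2-adapted cells, 6.73 and 6.59 in shTSC2 cells, and 8.32 and 8.21 in control cells. MEGF9, a membrane protein with laminin-type EGF-like repeats, read 7.32 and 7.51 in shTSC2-adapted cells, 6.42 and 6.40 in shTSC2 cells, and 8.28 and 8.55 in control cells. For both genes the adapted arrays lay about midway, above every shTSC2 array and below every control array. HEG1 stood at 53.2% of control in adapted cells and 32.9% in shTSC2 cells, and MEGF9 differed from control by -1.0 log2 in adapted cells, and was at 24.9% of control in shTSC2 cells.

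Inside the cell, DAB2 showed the lowest remaining share of control of the 10 genes. DAB2, a clathrin adaptor that also takes part in TGF-beta and integrin traffic, read 6.58 and 6.46 in shTSC2-adapted cells, 6.43 and 5.74 in shTSC2 cells, and 8.46 and 8.59 in control cells. This was 24.9% of control in adapted cells and 18.4% in shTSC2 cells, where the 2 arrays were 0.69 apart. CILK1, a kinase that acts at the tip of the primary cilium, read 6.36 and 6.14 in shTSC2-adapted cells, 5.82 and 5.42 in shTSC2 cells, and 7.43 and 7.41 in control cells. The 3 groups were separate, at 44.4% of control in adapted cells and 28.7% in shTSC2 cells.

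BNC1 and AOX1 act in the nucleus and the cytosol. BNC1, a zinc finger protein of basal keratinocytes and germ cells, read 5.69 and 5.73 in shTSC2-adapted cells, 5.06 and 5.11 in shTSC2 cells, and 6.70 and 6.55 in control cells. AOX1, an aldehyde oxidase that needs the molybdenum cofactor, read 4.84 and 4.77 in shTSC2-adapted cells, 4.51 and 4.74 in shTSC2 cells, and 5.81 and 5.82 in control cells. BNC1 stood at 53.0% of control in adapted cells and 34.4% in shTSC2 cells, and AOX1 at 49.7% of control in adapted cells and 43.8% in shTSC2 cells. All 4 knockdown values of AOX1 lay below the lower quartile of the genes tested (5.01), and the shTSC2 values of BNC1 lay just above it. With dim genes left out, AOX1, BNC1 and CILK1 were not tested.

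Set against control, the members were chosen for these differences, so they are given as a description with no test. The shTSC2 minus control difference of the 10 genes was -2.44 to -0.955 log2 with a median of -1.57, and all 10 were among the lower calls (limma, adjusted p below 0.05), where 13.9% of all 18417 genes were. For shTSC2-adapted minus control the range was -2.005 to -0.91 with a median of -1.055, and all 10 were among the lower calls, where 0.206% of all genes were. The medians over all genes were 0.025 and -0.005 in these comparisons, which share the control arrays. In either direction 20.8% of all genes were called in shTSC2 and 0.261% in shTSC2-adapted, each against control. All 10 members also had knockdown arrays wholly below the control arrays, as had 29.6% of all genes in shTSC2 and 24.1% in shTSC2-adapted, while 32.4% and 21.8% lay wholly above. In the second, 0 of the 10 stayed called without control 1, control 2, shTSC2-adapted 1 or shTSC2-adapted 2, as did 0 of all genes (2317 had an unadjusted p below 0.05 with all arrays). The sizes stayed between -2.07 and -0.84 over all settings run.

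No sharp edge separates the members from other genes. In all, 49 genes were at or below both -0.91 in shTSC2-adapted (HEG1) and -0.955 in shTSC2 (ANTXR1), each against control, and 39 of them are not members. Ordered by the smaller of the differences in the knockdown groups, FSTL1 (-1.77), TCP11L2 (-1.47) and MATN2 (-1.45) stood high without being members. Just inside lay BNC1 (-0.915) and HEG1 (-0.91), and just outside PPME1 (-0.905) and TLE4 (-0.90).

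The choice of members did not use the difference between shTSC2-adapted and shTSC2 cells, but it used the values of both groups, so the test of that difference is not independent of the choice. MEGF9, HEG1, CILK1 and BNC1 were higher in shTSC2-adapted than in shTSC2 cells, by 1.5-fold to 2.0-fold, and the other 6 did not pass. Of all genes 9.25% were called higher and 3.24% lower (limma, adjusted p below 0.05 over 18417 genes, two-sided), and since genes low in shTSC2 were chosen, nothing is read from the members' 4 and 0 against these shares. MEGF9 rose by 1.005 log2 (SE 0.12, n = 2 per group, adjusted p = 0.00395), which is 2.01-fold (95% interval 0.72 to 1.29 on the log2 scale). HEG1 rose by 0.695 (SE 0.10, adjusted p = 0.00631) and BNC1 by 0.625 (SE 0.10, adjusted p = 0.00844). CILK1 rose by 0.63 (SE 0.15, adjusted p = 0.0334).

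The remaining 6 genes gave wider or smaller intervals. DAB2 was 0.435 log2 higher on average (95% interval -0.05 to 0.92, adjusted p = 0.225), CD44 0.325 (0.03 to 0.62, 0.147) and CCDC80 0.245 (-0.26 to 0.75, 0.528). AOX1 stood at 0.18 (-0.07 to 0.43, adjusted p = 0.338), ANTXR1 at -0.115 (-0.34 to 0.11, 0.500) and FBLN1 at -0.295 (-0.56 to -0.03, 0.139). The intervals of DAB2 and CCDC80 reach that of MEGF9, and those of CD44 and AOX1 reach those of BNC1 and CILK1. This order therefore does not fully separate DAB2, CCDC80, CD44 and AOX1 from the 4 that passed. FBLN1 and ANTXR1 were the 2 members whose mean was lower in adapted than in shTSC2 cells. Without overlap, the adapted arrays lay above the shTSC2 arrays for 7 members and below for 2, where 25% and 27.1% of all genes did so. Since genes low in shTSC2 were chosen, nothing is read from these counts either.

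**Figure D2:**
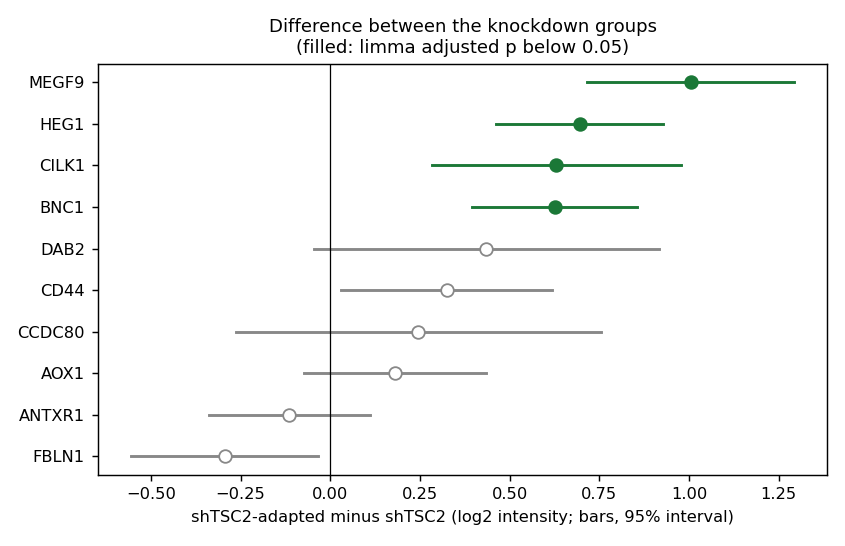
Difference of shTSC2-adapted minus shTSC2 in log2 intensity (horizontal axis) for the 10 genes (rows), with 95% intervals from the limma model. Filled points passed an adjusted p of 0.05: MEGF9 (1.005), HEG1 (0.695), CILK1 (0.63) and BNC1 (0.625), while FBLN1 (-0.295) and ANTXR1 (-0.115) lie left of 0.

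Single arrays decided some of these calls. Control arrays do not enter the shTSC2-adapted minus shTSC2 difference, here or in the paragraphs below. Without 1 of them the difference is unchanged, and a call can end only through the estimate of spread, as from only the 4 arrays compared. BNC1, HEG1 and MEGF9 passed under every alternative in which they were tested, with adjusted p up to 0.048, 0.0432 and 0.0275. CILK1 did not pass from only the 4 arrays compared (0.63, adjusted p = 0.0856). It also did not pass without shTSC2-adapted 1, shTSC2-adapted 2 or shTSC2 2, where it stood at 0.52, 0.74 and 0.43 log2. DAB2 and CCDC80 did pass without shTSC2 1, at 0.78 (adjusted p = 0.0105, range over settings 0.0105 to 0.697) and 0.60 (0.0385, range 0.0385 to 0.861), and stood at 0.09 and -0.11 without shTSC2 2. Gaps of 0.69 (DAB2), 0.71 (CCDC80) and 0.40 (CILK1) separated the shTSC2 arrays, against a median of 0.15 and a 95th percentile of 0.55 over all genes. FBLN1 passed as lower with quantile normalization (-0.40, adjusted p = 0.0442, range 0.0442 to 0.441).

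Gene length did not enter the choice directly, but genes in the members' span range fell more often, so length is not independent of the choice. All 10 genes span more of the genome than the median protein-coding gene tested (27.3 kb over 16902 genes), from BNC1 at 28.8 kb to ANTXR1 at 236 kb, with a median of 91.8 kb. Among the 7158 protein-coding genes within that span range, 22.3% were called lower in shTSC2 than in control, against 13.9% of all genes. In shTSC2-adapted against shTSC2 14.9% of them were called higher, against 9.25% of all genes. In shTSC2-adapted against control 0.363% of them were called lower, against 0.206% of all genes. All genes here are the 18417 tested, which include the 7158 and genes outside the 16902, so the sets differ in more than span. With the trend over span removed, MEGF9 was 0.88 higher in adapted than in shTSC2 cells (adjusted p = 0.0049), BNC1 0.62 (0.00824), HEG1 0.59 (0.0108) and CILK1 0.56 (0.0453). FBLN1 then stood at -0.41 (0.0525) and CD44 at 0.22 (0.318).

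Promoter sequence was read for 9 of the 10 genes from RefSeq on GRCh38.p14, with no entry for CILK1. The 150 bases before the start are shown for the matrix gene and the adaptor with the lowest share of control in adapted cells, CCDC80 and DAB2, and for HEG1 and MEGF9, whose adapted level was higher. The strand is minus for all 4, the letters run 5′ to 3′, and capitals mark the motifs found.
DAB2, chr5:39424981-39425130: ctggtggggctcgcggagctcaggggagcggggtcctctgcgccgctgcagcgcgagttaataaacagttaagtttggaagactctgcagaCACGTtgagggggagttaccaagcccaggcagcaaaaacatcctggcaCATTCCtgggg
CCDC80, chr3:112641144-112641293: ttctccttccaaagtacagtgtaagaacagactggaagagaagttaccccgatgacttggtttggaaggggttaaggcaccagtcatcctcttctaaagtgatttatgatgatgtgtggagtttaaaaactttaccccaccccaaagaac
HEG1, chr3:125055998-125056147: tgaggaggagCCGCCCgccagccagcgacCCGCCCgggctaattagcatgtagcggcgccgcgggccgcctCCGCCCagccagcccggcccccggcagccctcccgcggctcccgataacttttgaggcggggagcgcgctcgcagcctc
MEGF9, chr9:120714471-120714620: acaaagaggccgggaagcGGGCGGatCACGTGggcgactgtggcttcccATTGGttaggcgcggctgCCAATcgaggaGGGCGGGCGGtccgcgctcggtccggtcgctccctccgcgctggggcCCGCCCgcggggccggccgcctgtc

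These stretches differ in composition. Over the 250 bases before the start, CCDC80 holds 42.0% G and C and a ratio of observed to expected CpG of 0.09, whereas MEGF9 holds 74.4% and 0.95, HEG1 78.4% and 0.89, and DAB2 62.4% and 0.74. The median of all 35116 promoters is 58.0%. BNC1, the other gene higher in adapted cells that has an entry, holds 81.6%. The members without that call ranged over 42.0% to 77.6%, with FBLN1 at the top.

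Motifs were searched on both strands of the same 250 bases. Each member was read at the annotated start of its gene. The shares of all promoters are over all 35116 entries, not limited in that way and not matched for G and C content. The GC box (GGGCGG) is in 8 of 9 members, all except CCDC80, and in 42.6% of all promoters. The palindromic E-box CACGTG, bound by MYC and TFEB family factors, is in AOX1 and MEGF9 and in 6.34% of all promoters. The core of the hypoxia response element (ACGTG, which the E-box contains) is in DAB2, CD44, AOX1 and MEGF9, and in 18.5% of all promoters. The TEAD site GGAATG is in DAB2 alone of the 9, as its reverse CATTCC 11 to 6 bases before the start, and in 11.9% of all promoters. The cell cycle homology element TTTGAA is in ANTXR1 (13.3% of all), the CCAAT box in MEGF9 (CCAAT, 32% of all), and the AP-1 site TGANTCA in 0 of 9 (6.57% of all). These are matches of letters, and binding was not measured.

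Neighbours on the chromosome were counted next. Of the 20 nearest protein-coding genes tested on either side, chosen by position, 4 fell and 2 rose in shTSC2 against control, with a median of -0.015 log2 (all genes: 13.9% lower, 6.87% higher). In shTSC2-adapted against control 1 of 20 fell (all genes 0.206%), and in shTSC2-adapted against shTSC2 4 rose and 1 fell (all genes 9.25% and 3.24%). SLC35A5, a nucleotide sugar transporter family gene beside CCDC80, was lower in both, at -1.0 log2 in shTSC2-adapted and -2.185 in shTSC2, each against control (adjusted p = 0.0241 and 0.000237). PTGER4, a prostaglandin E2 receptor beside DAB2, went the other way in shTSC2 (1.69 against control, adjusted p = 0.000643). These genes were named after their values were seen.

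Among the genes ranked, the profile nearest to the mean of the 10 members belonged to MAP3K3, a kinase that binds the CCM2 protein of the HEG1 pathway. Likeness was the root mean square distance over the 6 arrays after each gene was set to its own control mean. The ranking left out the members, genes with uncharacterised or open reading frame names, noncoding RNA genes and olfactory receptors. MAP3K3 read 6.75 and 6.53 in shTSC2-adapted cells, 6.30 and 6.19 in shTSC2 cells, and 7.84 and 7.78 in control cells, a distance of 0.09 log2. The next were CTDSP2, a phosphatase (0.17), NIPAL3, a NIPA-like membrane protein (0.20), CLSTN1, a calsyntenin of the membrane (0.20), and KIF18A and KIF20A, mitotic kinesins (0.20 each). They were followed by CCNB1, the cyclin of mitotic entry (0.21), RBPMS, an RNA-binding protein (0.21), SDC2, a heparan sulphate proteoglycan of the cell surface (0.21), and JMY, an actin regulator (0.23). The members themselves lay between 0.14 (CILK1) and 0.67 (DAB2) from their own mean, so 8 of the 10 lay within 0.40 of it, with CCDC80 at 0.52.

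**Figure D3:**
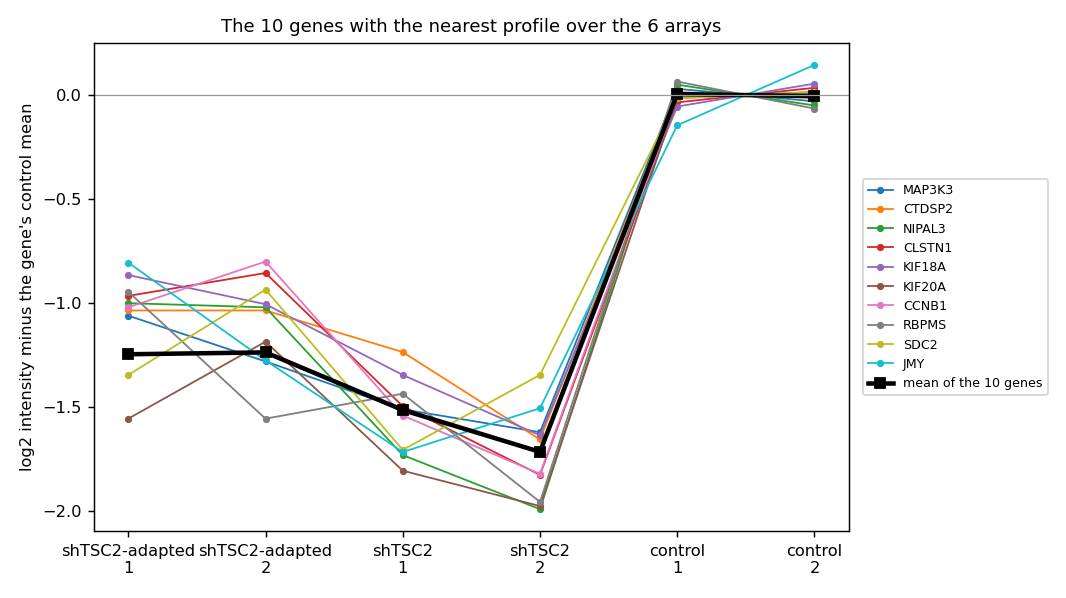
Log2 intensity minus each gene's control mean (vertical axis) on the 6 arrays (horizontal axis) for the mean of the 10 members (black squares) and the 10 nearest of the genes ranked (coloured lines). The member mean lies at -1.25 and -1.24 on the shTSC2-adapted arrays, -1.51 and -1.71 on the shTSC2 arrays, and near 0 on the control arrays, and MAP3K3 lies at a root mean square distance of 0.09 log2 from it.

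Genes that act with the members were taken from lists drawn up by role, with earlier results of these data known. The list counts here and below are therefore a description, and no support is drawn from them. Of 143 listed, 132 were tested, and 33 fell and 3 rose in shTSC2 against control, with a median of -0.05 log2 (all genes 13.9% lower, 6.87% higher, median 0.025). In shTSC2-adapted against control, 2 fell and 0 rose, namely FN1 and MAP3K3 (all genes 0.206% and 0.0543%). Between shTSC2-adapted and shTSC2, 16 were higher and 2 lower (all genes 9.25% and 3.24%).

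Among matrix partners of FBLN1 and CCDC80, 5 of 24 fell in shTSC2 and none rose. FN1, the fibronectin gene, whose product binds FBLN1, read 6.07 and 6.15 in shTSC2-adapted cells, 6.01 and 5.87 in shTSC2 cells, and 7.01 and 7.08 in control cells. It fell against control in shTSC2-adapted (-0.935, SE 0.10, adjusted p = 0.0265) and in shTSC2 (-1.105, adjusted p = 0.000726), and the first call ended without any of the adapted or control arrays (up to 0.386). The fibulin EFEMP1 fell in shTSC2 (-0.985, adjusted p = 0.00132) and stood at -0.635 in shTSC2-adapted (0.0730). LTBP1, which tethers latent TGF-beta, fell in shTSC2 (-0.565, 0.0484) and rose in shTSC2-adapted relative to shTSC2 (0.72, 0.0303). The other fibulins FBLN2 (0.22), FBLN5 (-0.38) and FBLN7 (0.045) did not pass in shTSC2 (adjusted p = 0.146 to 0.783). The first LTBP1 call ended without either control, shTSC2 1 or shTSC2 2, and the second without shTSC2 1 or shTSC2-adapted 2. The first passed in 7 of 15 alternatives, lost also with quantile normalization (0.104), median centring (0.066), every probe set tested (0.0516) and the length trend removed (0.106), and the second in 9 of 15, lost also with quantile normalization (0.0566) and from only the 4 arrays compared.

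Hyaluronan genes around CD44 gave 4 falls and 1 rise of 18 in shTSC2. HMMR, a hyaluronan-binding protein of the mitotic spindle, fell by 1.635 (adjusted p = 0.000464) and ADAM10, a protease that sheds CD44, by 0.80 (0.00149). Both were higher in shTSC2-adapted than in shTSC2 cells (0.84, adjusted p = 0.00664, and 0.485, 0.0159). Without shTSC2-adapted 1 both of these calls ended. That of ADAM10 also ended without shTSC2-adapted 2, from only the 4 arrays compared (adjusted p = 0.0541) or with the length trend removed (0.0513). SRGN, a proteoglycan that binds CD44, rose in shTSC2 by 0.53 (adjusted p = 0.00977; 0.0914 without control 1, 0.0817 without control 2). The hyaluronan synthase HAS2 stood at 0.855 (0.0523).

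Of the anthrax receptor family and its partners, 3 of 9 fell in shTSC2. The WNT co-receptor LRP6 fell by 0.875 (adjusted p = 0.00291) and rose in shTSC2-adapted relative to shTSC2 (0.77, 0.00858). Its relative LRP5 fell by 0.995 (0.00780; 0.0625 without control 1, 0.0722 without control 2), and the sister receptor ANTXR2 by 0.645 (0.0317). In the molybdenum list around AOX1, GPHN, gephyrin, which completes the molybdenum cofactor, was the 1 gene of 9 called. It read 7.65 and 7.57 in shTSC2-adapted cells, 6.39 and 6.61 in shTSC2 cells, and 7.44 and 7.49 in control cells. GPHN thus fell by 0.965 in shTSC2 (adjusted p = 0.00137) and rose by 1.11 in shTSC2-adapted relative to shTSC2 (0.00236). XDH, the related xanthine dehydrogenase, stood at 0.005 in shTSC2 (0.98).

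The CCM pathway below HEG1 gave 5 falls and 1 rise of 13 in shTSC2, and 4 rises and 1 fall in shTSC2-adapted against shTSC2. CCM2, the scaffold of the complex, read 7.96 and 7.97 in shTSC2-adapted cells, 7.03 and 7.16 in shTSC2 cells, and 7.90 and 7.90 in control cells. It fell by 0.805 in shTSC2 (adjusted p = 0.00162) and rose by 0.87 in shTSC2-adapted relative to shTSC2 (0.00288). MAP3K3 fell against control in shTSC2-adapted (-1.17, 0.0241) and in shTSC2 (-1.565, 0.000379), the first call ending without any adapted or control array (up to 0.386). KLF4, a transcription factor held down by the pathway in endothelium, read 6.16 and 6.27 in shTSC2-adapted cells, 7.19 and 7.07 in shTSC2 cells, and 6.07 and 6.07 in control cells. It rose by 1.06 in shTSC2 (0.000765) and was lower in shTSC2-adapted than in shTSC2 (-0.915, 0.00282). KLF2, also on the list, passed in no comparison. Its values were 7.34 and 7.53 in shTSC2-adapted cells, 7.56 and 7.79 in shTSC2 cells, and 7.50 and 7.53 in control cells. KRIT1 was listed but had no value to test. The activity of the pathway was not tested.

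The other called genes of that pathway moved as CCM2 did. STK24, a kinase that binds PDCD10, fell by 0.88 in shTSC2 (adjusted p = 0.00447), PDCD10 by 0.635 (0.00775) and the GTPase RAP1B by 0.54 (0.0146). All 3 were higher in shTSC2-adapted than in shTSC2, by 0.715, 0.60 and 0.49 (0.0169, 0.016 and 0.0317). In that comparison the calls of the 3 ended without either adapted array, and from only the 4 arrays compared (adjusted p = 0.0531, 0.0528 and 0.0858). That of RAP1B also ended without shTSC2 1, with quantile normalization (0.0518), median centring (0.0563) or the length trend removed (0.0505). Against control, PDCD10 and RAP1B also lost their calls without either control (0.0611 to 0.108).

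Endocytic partners of DAB2 gave 7 falls and 1 rise of 22 in shTSC2. NUMB, an adaptor with the same kind of phosphotyrosine-binding domain, fell by 1.365 (adjusted p = 0.00163) and rose by 1.045 in shTSC2-adapted relative to shTSC2 (0.00792). EPS15 and ITSN1, scaffolds of clathrin-coated pits, fell by 1.065 and 0.76 (0.00268 and 0.00266) and were 0.855 and 0.51 higher in shTSC2-adapted (0.0111 and 0.0207). The clathrin light chain CLTA rose in shTSC2 by 0.475 (0.0182; 0.166 without control 2, 0.0544 without control 1, 0.0509 without shTSC2 1), and the heavy chain CLTC stood at -0.345 (0.113). In shTSC2-adapted against shTSC2, the call of EPS15 ended without either adapted array. That of ITSN1 ended without either adapted array or shTSC2 1, and from only the 4 arrays compared (adjusted p = 0.0654). It also ended with quantile normalization (0.0525) or the length trend removed (0.0521).

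Of 23 kinase relatives and ciliary partners of CILK1, 7 fell and none rose in shTSC2. The transport proteins IFT172 (-0.705, adjusted p = 0.00253), IFT46 (-0.69, 0.0253) and IFT74 (-0.66, 0.00423) fell, as did RPTOR (-0.565, 0.00937), the mTORC1 subunit that CILK1 is reported to phosphorylate. The relatives of the kinase did not pass in shTSC2, with MAK at 0.30 (0.0807), MOK at -0.295 (0.26) and CDK20 at 0.035 (0.861). IFT74, IFT81 and RPTOR were higher in shTSC2-adapted than in shTSC2 (0.515, 0.48 and 0.40, adjusted p = 0.0184, 0.0334 and 0.0495), and BBS1, of the ciliary BBSome, was lower (-0.64, 0.0282). In that comparison all 4 calls ended without shTSC2-adapted 2, and from only the 4 arrays compared (adjusted p = 0.0615 to 0.104). The calls of IFT81, RPTOR and BBS1 also ended without shTSC2-adapted 1 (0.104 to 0.184), those of IFT81 and RPTOR without shTSC2 2 (0.0871 and 0.124) and that of BBS1 without shTSC2 1 (0.0575). RPTOR passed in 2 of 15 alternatives, lost also with quantile normalization (0.0792), median centring (0.0684), every probe set tested (0.0521), the length trend removed (0.137), array weights (0.0936) and the replicate block (0.0532), and IFT81 also lost its call with the length trend removed (0.0797) and array weights (0.0515). In shTSC2 against control, IFT46 and RPTOR lost their calls without either control (0.0542 to 0.146), IFT46 also without shTSC2 2 (0.0822), and IFT74 without control 2 (0.0512).

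Relatives of MEGF9 and BNC1 gave 1 fall and 0 rises of 14 in shTSC2. That gene was NTN4, a netrin with laminin-type repeats, which fell by 1.04 (adjusted p = 0.00225) and rose by 0.66 in shTSC2-adapted relative to shTSC2 (0.0214). The second call ended without shTSC2-adapted 1 or shTSC2 1, and from only the 4 arrays compared (0.062). BNC2, the homologue of BNC1, stood at -0.06 in shTSC2-adapted and -0.02 in shTSC2 (0.90 and 0.921). The MEGF relatives MEGF6, MEGF10 and MEGF11 lay between -0.02 and 0.09 in shTSC2 (adjusted p = 0.632 to 0.919).

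**Figure D4:**
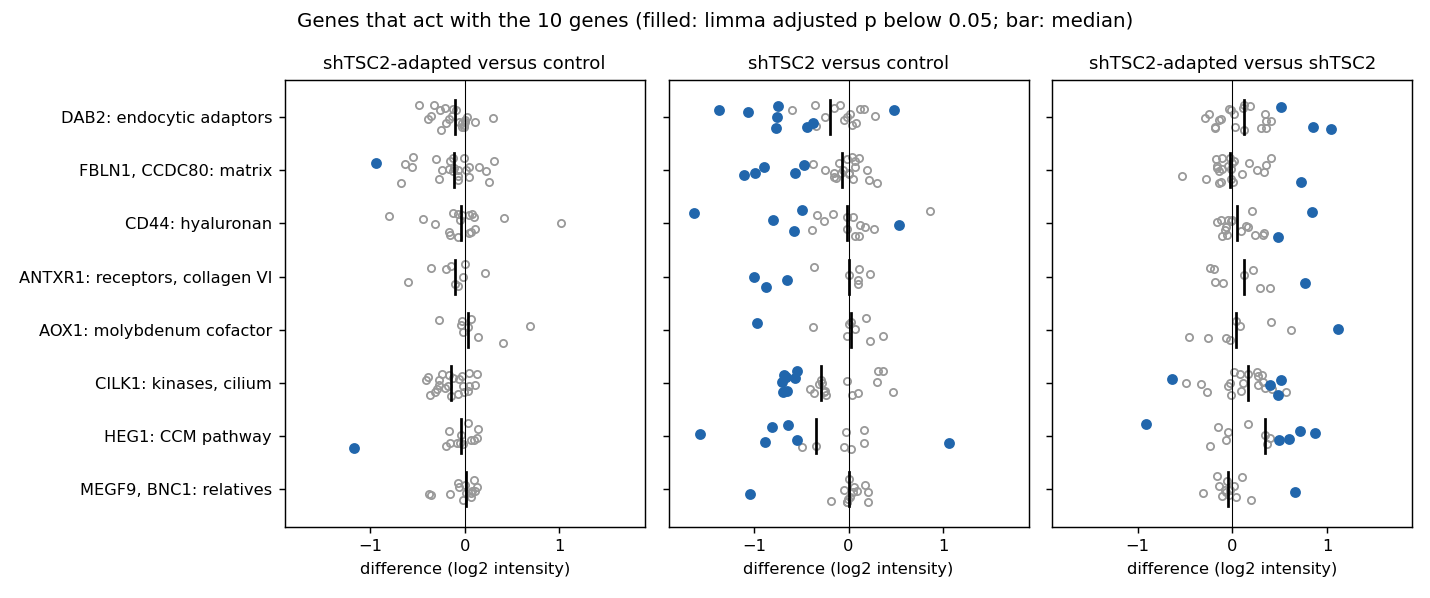
Differences in log2 intensity (horizontal axes) of the genes listed by role beside each member (rows), in shTSC2-adapted versus control, shTSC2 versus control and shTSC2-adapted versus shTSC2 (panels). Filled points passed an adjusted p of 0.05 with limma and bars are list medians. The left panel holds 2 filled points, FN1 and MAP3K3, against 36 in the middle and 18 on the right.

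Some epithelial markers passed in the comparisons with shTSC2 cells. Of 8 tested, EPCAM (-1.285, adjusted p = 0.0271) and KRT19 (-1.38, 0.00664) fell in shTSC2, and EPCAM (1.645, 0.0173), KRT19 (1.55, 0.00772) and CDH1, E-cadherin (1.54, 0.00756), were higher in shTSC2-adapted than in shTSC2. EPCAM read 7.97 and 8.42 in shTSC2-adapted cells, 6.06 and 7.04 in shTSC2 cells, and 8.06 and 7.61 in control cells. KRT19 read 8.93 and 8.12 in shTSC2-adapted cells, 6.97 and 6.98 in shTSC2 cells, and 8.47 and 8.24 in control cells. Whether these marker calls hold under the other settings was not computed. The list's median was 0.0475 log2 in shTSC2 against control and 0.045 in shTSC2-adapted against shTSC2. In shTSC2-adapted against control it was 0.1975 and 0 of 8 passed. There CDH1 read 7.54 and 6.73 in shTSC2-adapted cells and 5.67 and 5.80 in control cells. The summed intensity of the list was 6532 on both adapted arrays, 5960 and 6148 in shTSC2 cells, and 5732 and 5449 in control cells. This sum consists mostly of KRT8 and KRT18, at 11.22 to 11.5 log2, and says little of the other markers. The part of these shifts in the member values was not tested. Of 10 lymphoid and myeloid markers 2 rose and of 7 embryonic kidney markers 1 rose in shTSC2, and 0 of either passed in shTSC2-adapted against control, where 2317 of all genes had an unadjusted p below 0.05 (limma).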

How the data were processed

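Total RNA (100 ng per array) was biotin-labelled, per the labels' protocols. The deposited intensity values are on a linear scale and were made by the authors with RMA, per the submitters' processing notes; the sources used here give no version or genome build. RMA equalises the distributions of arrays, so a shift shared by most genes is partly removed. Taken to log2, each deposited value came within 6.99e-10 of 2 decimals, and that scale was analysed. Precision is limited by the number of arrays.

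Of 33297 probe sets, 19460 had 1 gene symbol in the platform annotation, 1754 several and 12083 are unnamed here; 19429 gene identifiers matched the GRCh38.p14 table, used for names, spans and order along chromosomes. The probe set with the highest mean was kept per gene (18417 genes). Limma 3.58.1 in R 4.3.3 was fitted to all 6 arrays, with 3 groups and 3 residual degrees of freedom, and p-values were adjusted by Benjamini-Hochberg over all genes. Named genes were the members, TSC2, the 10 nearest profiles, and in each role list the 2 largest rises and falls that passed and any gene called in 2 comparisons; others are named as context. The members and lists were chosen with earlier results of these data known. The model was tested on simulated data. Settings varied in turn were median centring, quantile normalization, the removal of dim genes, every probe set, removal of the length trend, only the 4 arrays compared, array weights, the array number as a block, and each array left out. Array numbers were not used as pairs in the main fit, and whether they mark a batch was not tested.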

Additional observations from a re-analysis of the deposited data

How the results depend on the processing

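The members were chosen for their differences from control, so their calls against control are described here and no support is drawn from them. In shTSC2 these calls were kept under every alternative run (7 of 7 with dim genes left out, where 3 members were not tested, and 10 of 10 otherwise). In shTSC2-adapted against control, 10 members were called in the fit of all arrays, 0 with the array number as a replicate block (adjusted p = 0.0515 each), and 0 to 10 with 1 array left out. In shTSC2-adapted against shTSC2, 4 members were called. With dim genes left out 2 were called, HEG1 and MEGF9, while BNC1 and CILK1 were not tested. The count also changed when 1 array was left out. Called partner genes in shTSC2 against control were 36, and 18 to 39 with 1 array left out. In shTSC2-adapted against control they were 2, with 5 under array weights, 0 under the replicate block and 0 to 3 with 1 array left out. In shTSC2-adapted against shTSC2 they were 18, with 7 from only the 4 arrays compared and 7 to 20 with 1 array left out. Over all genes, shTSC2-adapted against control gave 48 calls, and 437 with array weights, 121 with dim genes left out, 104 with the length trend removed, 90 with median centring, 248 from only the 4 arrays compared, 1 with the replicate block and 0 to 248 with 1 array left out. The counts were 1175 to 3895 for shTSC2 against control (3833 with all arrays) and 837 to 2600 for shTSC2-adapted against shTSC2 (2300 with all arrays, 1113 from only the 4 arrays compared). Where a group is left with 1 array, that array is assumed to vary like the other groups. The cause of these moves was not tested. Array weights came out equal within each group, at 0.92 in shTSC2-adapted, 0.60 in shTSC2 and 1.81 in control. That setting therefore could not single out 1 array of a group.

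Array numbers shared by groups gave correlations of the array differences across genes of 0.21 (shTSC2-adapted and shTSC2), -0.19 (shTSC2-adapted and control) and -0.10 (shTSC2 and control). These differ in sign, so the numbers were not used as pairs in the fit of all arrays. Whether arrays of different groups shared a batch was not tested. Apart from the counts above, the replicate block gave 4 called members in shTSC2-adapted against shTSC2 and 10 in shTSC2 against control. With the control numbers crossed, chosen after seeing the data, shTSC2-adapted against control gave 148 called genes, and 10 members. That setting gave 4212 called genes in shTSC2 against control and 2732 in shTSC2-adapted against shTSC2. CCDC80 in shTSC2-adapted against shTSC2, not called with all arrays, was 0.60 and called without shTSC2 1 and -0.11 without shTSC2 2. Single-gene values under the alternatives were not computed for the cell type markers, the chromosomal neighbours or partner genes named only as context, such as ANTXR2.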
